A study of Mus musculus with 6 samples.

Results

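The genes described here are the RUNX transcription factors Runx1, Runx2 and Runx3, their shared partner subunit Cbfb, and Runx1t1, a corepressor gene of the ETO family. They were chosen by name, and are 5 of the 26220 mouse genes with a curated RefSeq transcript against which the deposited gene lists were read. H3K27me3, trimethylation of lysine 27 on histone H3, was mapped by ChIP-seq in primary granulosa cells, the follicle cells that surround the oocyte. The control group comprised 3 samples without agent and the DHT group 3 samples treated with 25 nM dihydrotestosterone (an androgen that aromatase cannot turn into estrogen) for 24 h. All 6 samples came from wild type C57BL/6J mice aged 8 to 9 weeks, whose granulosa cells were pooled and plated in 6 dishes, so a sample is a dish and not an animal. The labels and the methods of the study give different numbers of mice for this pool. The p-values and replicate errors of a usual comparison cannot be given, because the values at hand are 1 pooled peak list per group and gene lists without values per gene. How deeply each sample was sequenced is unknown here.

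RUNX proteins bind DNA through the Runt domain, and CBFB, which does not bind DNA itself, raises their affinity for it. They act as activators or repressors according to the cofactors they meet at a promoter. RUNX1 is known for its role in blood formation, RUNX2 for bone formation and RUNX3 for neurons and T cells, and in the ovary RUNX1 and RUNX2 are induced in granulosa cells by the ovulatory surge of luteinizing hormone. RUNX1T1 carries no Runt domain. It is named for its fusion to RUNX1 in leukemia, and recruits histone deacetylase complexes. H3K27me3 is laid down by EZH2 in Polycomb repressive complexes and marks silent genes.

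Runx1, Runx2 and Runx3 are each transcribed from a distal and a proximal start, and the sequence near the distal start holds a stretch common to these genes. The following 30-base stretches, on the strand of the gene, are from the promoter windows of RefSeq in GRCm38.p6, with the core bound by RUNX proteins in capitals. The core is read as ACCACA here, which is TGTGGT on the opposite strand. They lie at chr16:92826025-92826054 (minus strand), chr17:44814583-44814612 (minus strand) and chr4:135120503-135120532 (plus strand), in that order.
Runx1: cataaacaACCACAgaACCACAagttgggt
Runx2: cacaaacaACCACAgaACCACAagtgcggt
Runx3: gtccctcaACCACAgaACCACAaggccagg

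The 3 genes share a run of 18 bases, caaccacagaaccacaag, that holds the core 2 times in tandem. Among the 32841 promoter windows of 300 bases that were searched on both strands (250 bases before and 50 after each start), 4 held this run, or 0.0122%. The run was defined as the longest that windows of Runx1, Runx2 and Runx3 all share, so these 3 genes held it by construction. The other window was that of Gm16225, a noncoding gene. That window covers the stretch of chromosome 4 with the Runx3 run, on the other strand. Gm16225 itself does not overlap Runx3 in the RefSeq table. The run began 27 bases after the listed start in Runx1 and 22 bases after it in Runx2, but 136 bases before it in Runx3. The single core TGTGGT was much more common, in 16.8% of windows on either strand, and 2 or more copies were in 1.81%. The Runx2 window held a further copy 80 bases before the start, and 1 copy of TGCGGT, a variant of the core that 6.46% of windows contained. Neither variant was found in the Cbfb window or in the proximal windows of Runx1 and Runx3. For Runx2 the table gave the distal start alone, and Runx1t1 was without an entry. These matches describe the reference sequence, and binding of RUNX proteins was not measured.

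The starts also differed in CpG content, a feature of the promoters at which Polycomb complexes are usually found. The Runx1 windows are shown as an example of a gene with a CpG-poor and a CpG-rich start. The 250 bases before each start, at chr16:92826075-92826324 and chr16:92697330-92697579 on the minus strand of GRCm38.p6, are given with CpG dinucleotides in capitals.
Runx1 distal start: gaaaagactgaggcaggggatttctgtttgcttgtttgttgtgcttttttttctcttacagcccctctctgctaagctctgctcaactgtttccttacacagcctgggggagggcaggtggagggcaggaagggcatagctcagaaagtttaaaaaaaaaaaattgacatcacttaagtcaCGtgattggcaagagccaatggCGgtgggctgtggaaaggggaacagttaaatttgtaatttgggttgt
Runx1 proximal start: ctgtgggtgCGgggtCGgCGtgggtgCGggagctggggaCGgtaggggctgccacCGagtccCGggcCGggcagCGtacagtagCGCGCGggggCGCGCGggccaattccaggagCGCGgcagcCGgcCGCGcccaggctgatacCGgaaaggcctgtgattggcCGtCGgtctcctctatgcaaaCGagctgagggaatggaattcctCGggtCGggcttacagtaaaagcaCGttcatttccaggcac

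Over the whole 300 bases the distal Runx1 window contained 2 CpG dinucleotides and the proximal window 35. The median over all windows was 7, with quartiles of 3 and 20. The Runx3 windows likewise contained 8 at the distal and 45 at the proximal start, the Runx2 window 2 and the Cbfb window 30. Thus the proximal windows of Runx1 and Runx3 and the window of Cbfb had more CpG dinucleotides than 93.0%, 98.1% and 88.3% of windows.

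**Figure D1:**
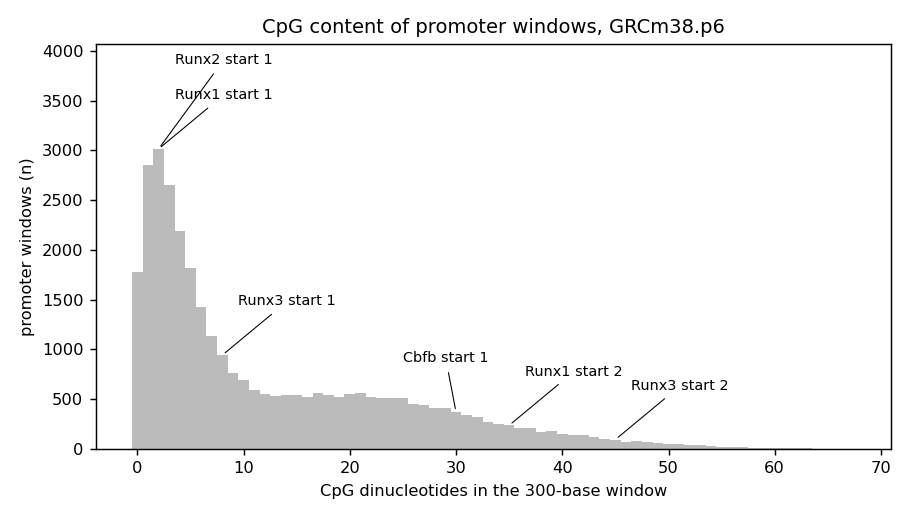
CpG dinucleotides per 300-base promoter window (x axis) against the number of RefSeq windows in GRCm38.p6 (y axis), with the 6 windows of Runx1, Runx2, Runx3 and Cbfb marked; start 1 is the distal and start 2 the proximal start. The distal windows of Runx1 and Runx2 hold 2 each and lie at the peak of the distribution, whereas Runx1 start 2, Runx3 start 2 and Cbfb hold 30 to 45.

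To determine which of the 5 genes carried H3K27me3, each was looked up in all 8 deposited gene lists. Runx1, Runx2, Cbfb and Runx1t1 were in the gene body list of the control group, and 0 of the 5 were in the gene body list of the DHT group. Runx3 was in neither. The control list held 11.9% of all genes and the DHT list 4.36%. Thus 4 of 5 genes had a peak called in the gene body in control and not after DHT, the pattern of 9.36% of all genes. Of the 3133 genes in the control list, 2453 were likewise in control alone, so absence after DHT was the usual state of a listed gene. Neither being in both lists, as 2.59% of all genes were, nor being in the DHT list alone, as 1.76% were, was found among the 5. Runx1 and its subunit gene Cbfb therefore had the same pattern as Runx2 and the corepressor gene Runx1t1, and Runx3 was not listed. Of genes near Runx3 in length the control list held 25.9%, so its absence was the usual state. Listed in control alone were 40.2% of genes in the length class of Runx1, Runx2 and Runx1t1, and 12.2% in that of Cbfb. Presence or absence in a pooled list is not a level: a gene leaves the list when its peaks miss the calling threshold, and the size of a change at these genes is not given by the lists.

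In promoters, which the study took as the 1 kb upstream and the 1 kb downstream of a start, 0 of the 5 genes were listed in control or after DHT. The background was 0.603% of all genes in control and 0.206% after DHT, so absence from these short lists was the usual state of a gene. Nor was any of the 5 in the lists of genes that rose or fell in expression, whether with a gene body peak (22 upregulated and 15 downregulated genes) or linked to an enhancer (66 and 33 genes). These lists held 0.0839%, 0.0572%, 0.233% and 0.126% of all genes. The paper itself counts fewer downregulated genes with a gene body peak than the 15 listed. Only regulated genes with a peak or a linked enhancer are in these lists, so absence from them does not show that expression was unchanged.

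**Figure D2:**
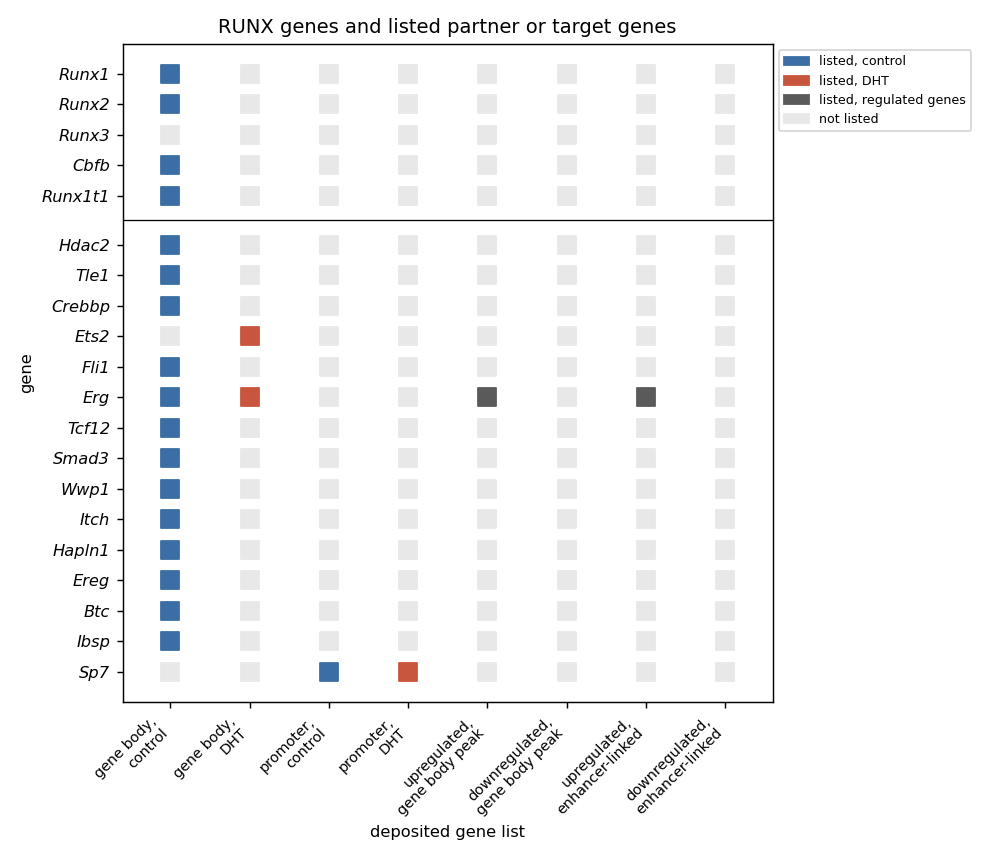
Deposited gene lists (x axis) in which each gene (y axis) was found, with the 5 RUNX genes above the line and, below it, the partner, modifier and target genes found in any list. Filled squares mark a listed gene: Runx1, Runx2, Cbfb and Runx1t1 are filled in the control gene body column alone, and the row of Runx3 is empty.

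For Runx1 the study also designed a PCR assay of the mark, and its position was compared with the lists. The primers are shown because they fix that position to the base.
Runx1 forward primer: aagagtgcgagtctgcctgt
Runx1 reverse primer: ttcccacagctgaggactct

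Each primer matched the chromosomes of GRCm38.p6 exactly and at 1 place, and together they bound 115 bases at chr16:92696634-92696748. In GENCODE M21 this stretch lies wholly in an untranslated part of an exon of the transcript from the proximal start, 580 to 694 bases after that start, and in an intron of the longer transcript from the distal start, 129401 bases downstream of it. The assayed stretch is therefore in the gene body of these transcripts, and also within 1 kb of the proximal start, though not of the distal start. Shorter protein-coding transcripts of Runx1 start further downstream. The stretch lies outside them, at -623 to -509 and -1253 to -1139 bases from their starts. Which starts of Runx1 the study counted for its promoter lists was not given in the sources used here. Runx1 was in the control gene body list but in neither promoter list. The peaks themselves are in mm9, an assembly whose gene positions were not used here, so how far the called peaks of Runx1 lie from the assayed stretch was not determined.

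Gene length was examined next, since a longer gene offers more room for a peak. Genes were ranked by length in GRCm38.p6 and divided into 10 classes of equal size. The control list held 0.114% of genes in the shortest class and 60.3% in the longest, and the DHT list held 0.0381% and 26.5%. Runx2 (318.8 kb), Runx1 (224.6 kb) and Runx1t1 (152.4 kb) belong to the longest class (97.0 kb and above), in which 40.2% of genes were listed in control alone. Runx3 (57.3 kb) is in class 9 (49.7 to 96.9 kb), where the control list held 25.9% of genes and 22.8% were listed in control alone. Cbfb, at 47.3 kb the shortest of the 5, is in class 8 (30.8 to 49.7 kb), with 13.6% and 12.2%. Cbfb was listed, and the longer Runx3 was not. In the class of the 3 long genes, the control list held 1580 of 2622 genes (60.3%). Of these 1580, 1054 were in control alone (40.2% of the class), the more frequent state of a control-listed gene. The part that length plays in these calls was not tested.

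**Figure D3:**
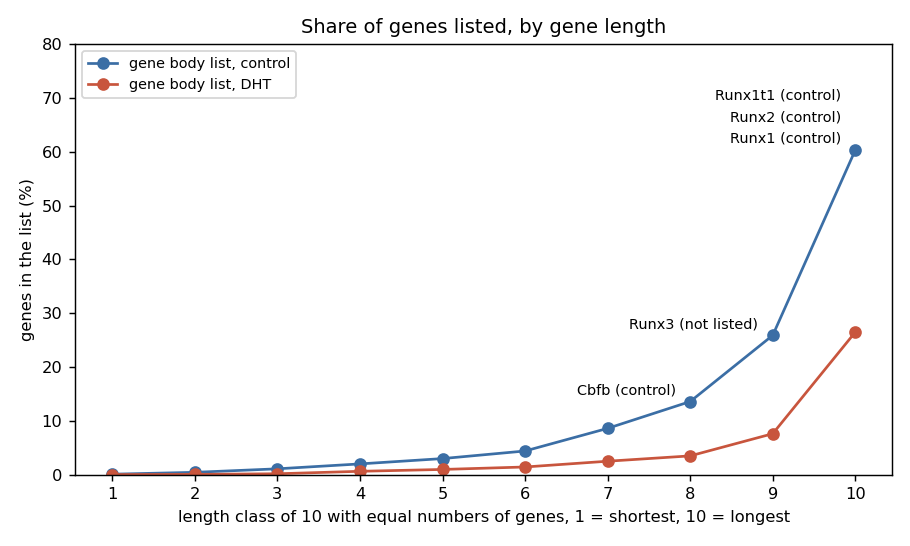
Share of genes in the gene body list of control (blue) and DHT (red) in percent (y axis) by length class (x axis, 10 classes of equal size, 1 is the shortest). Labels mark the class of each RUNX gene and whether the control list held it; Runx1, Runx2 and Runx1t1 sit in the longest class, where 60.3% of genes are listed in control and 26.5% after DHT.

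Overlapping genes can share a peak. Supt3, which encodes a subunit of transcriptional coactivator complexes, overlaps Runx2 over 37.7 kb and was likewise listed in control alone, so a peak in the shared stretch would place both genes in the list. The noncoding genes that overlap Runx1 (Gm30281), Runx2 (Runx2os3) and Cbfb (AI225912 and Gm22063) were in none of the lists. No other gene overlaps Runx3 or Runx1t1 in the RefSeq table.

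Next, the genes around each of the 5 were read in chromosomal order, because gene order can be compared between assemblies where positions cannot. Of the 5 protein-coding genes on each side, the control list held 7 of 50 (14.0%) and the DHT list 1 of 50 (2%), against 13.6% and 4.96% of all protein-coding genes. Runx2 had the most, with 4 of 10 neighbours in the control list: Supt3, Enpp5, Rcan2 and Cyp39a1. Supt3 (342.2 kb) and Rcan2 (238.2 kb) are in the longest class, where the control list held 60.3% of genes. Cyp39a1 (84.1 kb) is in class 9 (25.9%), whereas Enpp5 is short (7.8 kb), in a class with 2.02%. Nothing is read from the count around Runx2. Enpp5 was also in the DHT list, and 4930564C03Rik, the second gene beyond Runx2 on the Supt3 side, was in the control promoter list. Next to Runx1 the single listed neighbour was Rcan1, the second gene along. For Runx1t1 these were Lrrc69 and Tmem67, and for Runx3 and Cbfb there were 0 of 10. Up to 10 genes to either side of Cbfb, 0 of 20 were in a gene body list. These neighbours are short on both sides, from 2.6 kb (B3gnt9) to 27.9 kb (D230025D16Rik). In the length classes that span these sizes the control list held between 0.458% and 8.62% of genes, so nothing is read from the count. The nearest listed gene to Runx3 was Man1c1, 7 genes away.

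**Figure D4:**
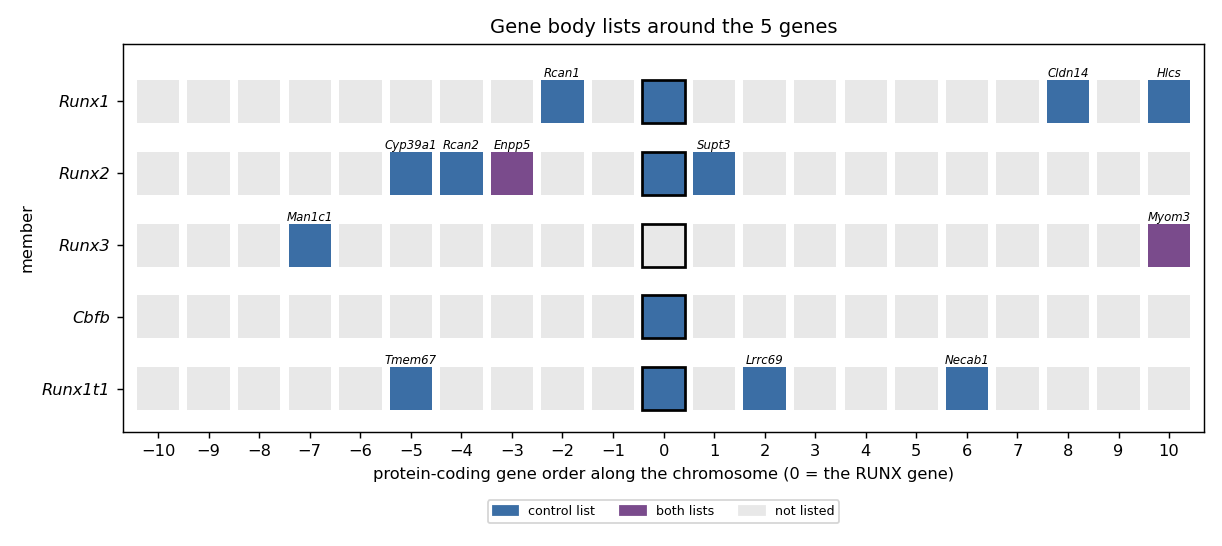
Gene body list status of the 10 protein-coding genes on each side of the 5 RUNX genes (rows) by order along the chromosome (x axis, 0 is the RUNX gene, outlined). Blue marks genes in the control list alone, purple genes in both lists and gray genes in neither; Runx2 has 4 listed genes within 5 places and Cbfb has none within 10.

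The RUNX genes are known to lie in related blocks with a CLIC gene, which encodes a chloride channel protein, and an RCAN gene, which encodes a regulator of the phosphatase calcineurin. These blocks were singled out after their values had been seen. In the control gene body list were Runx1 with Rcan1 and Runx2 with Rcan2, 4 of the 9 genes, of which 2 are the RUNX genes already described, and Runx3 and Rcan3 were both absent. In the length classes of these genes the control list held 60.3% (Runx1, Runx2 and Rcan2) and 25.9% (Rcan1) of all genes, and 11.9% over all lengths, so nothing is read from the count. The 3 CLIC genes, Clic6, Clic5 and Clic4, were absent as well. In the DHT list were 0 of the 9, against 4.36% of all genes and 26.5% of the longest class, and nothing is read from that count either. Length ran in the same order in the RCAN genes, from Rcan2 (238.2 kb) and Rcan1 (74.2 kb) to Rcan3 (21.6 kb), but Clic5 at 145.4 kb was not listed. Whether length sets these calls was not tested.

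Finally, 99 genes that encode cofactors, DNA-binding partners and modifiers of RUNX proteins, or that RUNX proteins are known to regulate, were looked up. In the control gene body list there were 13 (13.1%), against 11.9% of all genes, and in the DHT list 2 (2.02%), against 4.36%. Of the 99, 12 were in the control list alone, 1 in both and 1 in the DHT list alone. The control share was near that of all genes and the DHT share, resting on 2 genes, was lower. The 99 genes are shorter than the 5 RUNX genes, with a median length of 23976 bp against 152429 bp, and no test was made between the sets. Of the 16 that belong to the longest class of genes, 6 were in the control list (37.5%, against 60.3% of all genes that long). Of the other 83 genes 7 were also listed (8.43%, against 6.58%).

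By role, 2 of 13 corepressors were in the control list, the histone deacetylase gene Hdac2 and the Groucho-type corepressor gene Tle1. The ETO family paralogs of Runx1t1, Cbfa2t2 and Cbfa2t3, were in none of the lists. Among 6 coactivators there was 1, the acetyltransferase gene Crebbp. DNA-binding partners contributed 4 of 26: the ETS factor genes Fli1 and Erg, Tcf12 of the E protein family, and Smad3, which relays TGF-beta signals. Of these 4, Erg was the one that was also in the DHT list, and both lists of upregulated genes held it as well, the one based on gene body peaks and the one based on enhancers. Ets2, another ETS factor gene, was listed after DHT alone. Modifiers of RUNX proteins contributed 2 of 16, the related ubiquitin ligase genes Wwp1 and Itch. Apart from the ETO paralogs, these counts came to between 12.5% and 16.7% of each group in control, near the 11.9% of all genes, and they set no group apart.

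Of 17 genes tied to RUNX factors in ovulatory granulosa cells, the control list held 3 (17.6%, against 11.9% of all genes) and the DHT list 0 (against 4.36%). Counts this small do not set these genes apart from the rest. They were Hapln1, which stabilizes the hyaluronan matrix of the cumulus, and Ereg and Btc, which encode ligands of the EGF receptor. The other 14, among them the prostaglandin synthase gene Ptgs2 and the progesterone receptor gene Pgr, were in no peak list. Of 19 targets known from bone, cartilage and blood, 1 (5.26%) was in the control gene body list, the bone sialoprotein gene Ibsp. Sp7, the osteoblast factor gene downstream of RUNX2, was in the promoter lists of both groups and in neither gene body list. It was the only 1 of the 99 genes with a promoter peak. The promoter lists held 0.603% of all genes in control and 0.206% after DHT, so this count does not set the 99 genes apart.

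**Figure D5:**
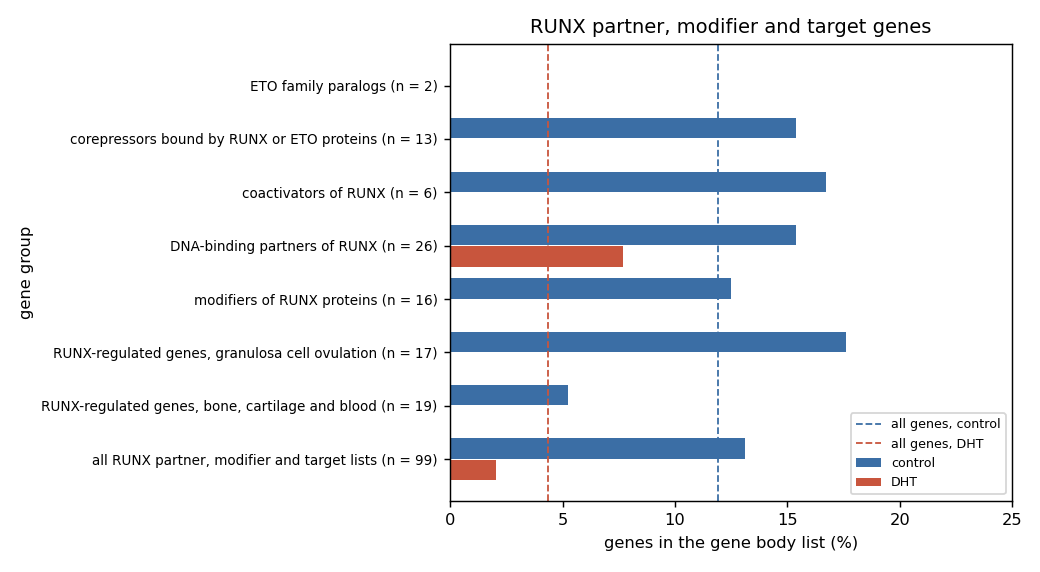
Share of genes in the gene body list of control (blue bars) and DHT (red bars) in percent (x axis) for each group of RUNX partner, modifier and target genes (y axis, n is the number of genes). Dashed lines mark all genes, 11.9% in control and 4.36% after DHT; for the 99 genes together the bars are at 13.1% and 2.02%.

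As a check of the labelled cell type, 2 of 12 granulosa cell markers and 3 of 13 markers of other ovarian cells were in the control gene body list (16.7% and 23.1%, against 11.9% of all genes). After DHT there were 2 of each (16.7% and 15.4%, against 4.36%). A list of a repressive mark does not measure expression, so the makeup of the cultures could not be read from it. On the chromosomes that carry the 5 genes the DHT list held fewer peaks than the control list, with 175 and 637 on chromosome 16 (Runx1), 135 and 561 on chromosome 17 (Runx2), 232 and 969 on chromosome 4 (Runx3 and Runx1t1), and 238 and 832 on chromosome 8 (Cbfb). The DHT number was between 23.9% and 28.6% of the control number, compared with 24.3% over the genome (95% interval of 23.5% to 25.2%, from the Wilson interval of the DHT part of all peaks in both lists, turned into a ratio). On chromosome 8 the interval of 24.8% to 33.0% lay just above this value, and on the other 3 chromosomes it included it. With peaks held to a q-value of 0.001 or less, the DHT number over the genome was 70.4% of the control number, so the excess of control peaks was concentrated among those with weaker q-values. Absence from the DHT gene lists thus came with a shorter peak list on every one of these chromosomes, and the part that this plays in the pattern of the 4 genes was not tested.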

How the data were processed

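H3K27me3 ChIP-seq had been done on 3 control and 3 DHT samples, grouped here by the labelled agent. Per the submitters' processing notes and methods, the authors aligned reads to mm9 (Bowtie2 2.3.4), used reads with 1 mapping position, and called broad peaks (MACS2 2.1.1, q-value of 0.05 or less), giving 1 peak list per group. The methods state that duplicates were removed, whereas peak names carry the tag keep_auto. How replicates were combined, and whether an input library was used, was not given in the sources used here. The deposited peak files hold a score, a fold enrichment (ratio), and −log10 p-values and q-values per peak, of which the −log10 q-value was used. Other deposited files are lists of gene symbols. Symbols were read against RefSeq genes of GRCm38.p6 with a curated transcript. After older symbols were mapped, 3133 of 3144 control and 1142 of 1146 DHT gene body entries matched. Since the peaks are in mm9, no peak was placed on a gene, and peaks within 50 kb of the 5 genes were not analysed here. Of the partner genes, 1 is not reported here and was left out of every count of them. Shares are descriptive, with no test, and intervals cover counting error only. The genes and lists were chosen with earlier results of these data known. Named were the 5 genes, every partner or target gene in any list, and the nearest listed neighbours. Other neighbours, Ptgs2, Pgr, Cbfa2t2, Cbfa2t3 and the Clic and Rcan genes were added after their values were seen. All genes listed in control and not after DHT share 1 pattern, so none could be ranked by likeness. Python 3.11.15, pandas 2.3.3, scipy 1.17.1 and matplotlib 3.10.9 were used, and the list and motif searches were tested on simulated data. Depth per sample is unknown, which limits the precision of every call.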

Additional observations from a re-analysis of the deposited data

How the results depend on the processing

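No paired analysis was possible because each group has a single list without values per replicate, and fits without each replicate could not be run for the same reason. Peaks within 50 kb (with other windows, limits and overlaps) and protein identity were not run, as mm9 gene positions and protein sequences were not used here. Older symbols left 4 and 0 members, and 13 and 2 partner genes, in the control and DHT gene body lists. Backgrounds moved with the genes counted. Of protein-coding genes 13.6% were in the control list, 4.96% in the DHT list and 10.6% in control alone; of genes in either list 87.1%, 31.8% and 68.2%; and of the whole reference table, an alternative chosen after seeing the data, 6.27%, 2.28% and 4.91%. With 5 instead of 10 length classes, the share in control alone was 31.5% for the class of Runx1, Runx2, Runx1t1 and Runx3 and 10.1% for that of Cbfb, where 10 classes gave 40.2%, 22.8% for Runx3 and 12.2%. Of neighbours, 15.0% of the nearest 2 and 12 of 100 of the nearest 10 on each side were in the control list, and 6.00% when noncoding genes were counted. The ratio of DHT to control peak numbers was higher under a stricter limit on q. At 0.01 or less it was 43.9%, 38.1%, 38.2% and 56.4% on chromosomes 16, 17, 4 and 8, and at 0.001 or less 89.3%, 88.9%, 52.8% and 79.5% (41.4% and 70.4% over the genome). TGTGGTT was in 3 windows of the RUNX genes and TGCGGT in 1, compared with 3 for TGTGGT.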
